A study of Mus musculus with 8 samples.

Results

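The Rab family of small GTPases was followed in mouse embryonic stem cells kept in LIF or in sodium butyrate. Members were taken by name, as every gene on the array whose symbol was Rab followed by a number and at most one letter and digit. That gave 55 genes, covered by 103 probes, of which 51 were bright enough to test, among 17190 genes tested in all. A Rab protein switches between a GTP-bound form that sits on a membrane and a GDP-bound form that is drawn back into the cytosol, and each Rab marks a particular membrane of the cell. The GTP-bound form recruits effectors such as tethers, motors and sorting proteins, so the set of Rabs defines early endosomes, recycling endosomes, late endosomes, the Golgi and secretory vesicles. Stem cells use these routes to take up, recycle and degrade surface receptors and adhesion molecules.

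All cells were of R1, an established line of mouse embryonic stem cells, cultured on gelatin in a serum replacement medium. One group of 4 samples received LIF, the cytokine that keeps such cells undifferentiated, with no feeder cells. The other group of 4 samples received sodium butyrate, the salt of a short fatty acid and an inhibitor of histone deacetylases, at 0.2 mM with no LIF, over 15 passages; for how long the LIF cells were passaged is not stated in the labels. Total RNA of 1 butyrate sample, in the red dye Cy5, and 1 LIF sample, in the green dye Cy3, was hybridised together on each of 4 Agilent arrays of 1 slide. No array had the dyes exchanged, so in every value the treatment cannot be told apart from the dye. Samples are described in the labels as independent, with no more said, so each p-value reflects only how far these samples scatter, which may be technical.

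Depth was similar within each group. Between 57.9% and 61.2% of probes were well above background in the LIF samples, against 62.7% to 63.9% in the butyrate samples. Of 7 tested pluripotency genes 5 fell in butyrate and 1 rose, or 3 and 2 when arrays were centred on their median without loess, the intensity-dependent correction (here called centring). The centring used all non-control spots, and the median log2 ratio of the tested genes was then 0.41. Pou5f1 had a log2 ratio of butyrate over LIF of -1.57 ± 0.22 (SD, n = 4 arrays), Sox2 of -1.24 ± 0.09 and Nanog of 0.23 ± 0.05, and all 3 stayed well above background in every sample. The summed signal of the list without Dppa5a, which was saturated in both groups, ran from 48500 to 55100 in butyrate and from 62900 to 69100 in LIF. Markers of other cell types also moved with treatment. Of 8 simple epithelium genes 6 rose and 1 fell, of 8 trophoblast genes 8 rose, of 7 tested fibroblast genes 6 rose and 1 fell, and of 4 tested haematopoietic genes 4 rose; with centring 7, 8, 6 and 3 were called higher. Elf5, Dcn and Lyz2, 1 gene each of the last 3 lists, were well above background in butyrate samples only and so could pass the filter only by being high there. Their summed signals in butyrate and in LIF were 45700 to 47900 against 19900 to 21400 for the 6 epithelium genes other than Krt8 and Krt18, which were saturated in butyrate, 13100 to 13200 against 4520 to 5350 for trophoblast, 10300 to 10700 against 1840 to 2150 for fibroblast and 1290 to 1530 against 779 to 946 for haematopoietic cells. In RNA of whole cultures a change in the number of cells of a type and a change in RNA per cell cannot be told apart, and the part of these markers in the Rab values was not tested.

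Rab3b and Rab3d are close relatives that moved in opposite directions after loess. Rab4b was the member with the lowest ratio after loess, and Rab32 rose most outside the endocytic and secretory classes. Promoters of these 4 members are shown as examples. Each is the 250 bases before the annotated start in RefSeq (GRCm38.p6), written 5′ to 3′ on the strand of the gene; capitals mark GC boxes (GGGCGG or its reverse CCGCCC) and CCAAT boxes (CCAAT or ATTGG).
Rab3b, chr4:108878820-108879069, plus strand: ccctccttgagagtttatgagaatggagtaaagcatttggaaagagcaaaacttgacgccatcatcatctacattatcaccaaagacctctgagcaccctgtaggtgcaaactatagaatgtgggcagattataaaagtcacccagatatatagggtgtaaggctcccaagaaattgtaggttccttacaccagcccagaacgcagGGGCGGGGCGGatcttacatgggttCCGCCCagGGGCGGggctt
Rab3d, chr9:21918184-21918433, minus strand: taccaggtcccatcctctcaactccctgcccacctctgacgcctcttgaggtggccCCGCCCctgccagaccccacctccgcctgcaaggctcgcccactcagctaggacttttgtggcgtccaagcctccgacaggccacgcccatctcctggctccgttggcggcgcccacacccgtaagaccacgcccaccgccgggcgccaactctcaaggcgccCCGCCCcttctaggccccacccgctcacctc
Rab4b, chr7:27178884-27179133, minus strand: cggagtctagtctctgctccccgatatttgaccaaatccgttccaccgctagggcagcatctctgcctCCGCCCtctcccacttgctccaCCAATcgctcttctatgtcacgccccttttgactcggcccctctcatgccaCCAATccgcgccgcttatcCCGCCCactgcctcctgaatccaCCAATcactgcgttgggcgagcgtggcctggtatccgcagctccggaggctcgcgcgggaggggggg
Rab32, chr10:10558208-10558457, minus strand: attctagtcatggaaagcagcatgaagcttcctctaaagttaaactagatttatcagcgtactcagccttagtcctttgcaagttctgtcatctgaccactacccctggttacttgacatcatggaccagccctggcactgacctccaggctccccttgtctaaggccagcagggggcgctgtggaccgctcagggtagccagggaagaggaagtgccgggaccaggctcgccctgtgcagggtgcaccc

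The Rab3b window held 4 GC boxes, 2 of which overlap by a letter, and 1 TATA box (TATAAA or TTTATA), the Rab3d window 2 GC boxes, the Rab4b window 2 GC boxes and 3 CCAAT boxes, and the Rab32 window neither box. Over all 32851 RefSeq mouse promoters of this length, 32.7% held a GC box, 33.8% a CCAAT box and 12.4% a TATA box on either strand, and 2.79% held 3 or more CCAAT boxes. Promoters were matched for 46 members, with 55 annotated starts: 36 of the 55 windows held a GC box, 24 a CCAAT box, 3 a TATA box and 5 an E-box (CACGTG, in 6.02% of all promoters). These are matches of letters in a window and no binding was measured.

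Butyrate and LIF samples differed in most Rab genes, after loess by amounts under 2-fold. Of the 51 tested members 39 (76.5%) passed at an adjusted p under 0.05 in limma's moderated test, next to 75% of all genes tested. Of these, 25 members (49%) were higher in butyrate and 14 (27.5%) were lower, while over all genes the shares were 41.7% and 33.3%. With centring the split was 37 higher and 3 lower for the members and 56.7% higher and 4.64% lower for all genes. All 39 members that passed had the same sign on all 4 arrays, which passing the test nearly ensures. Of all 51 tested members 44 did. At least 1.5-fold was reached by 11 members (21.6%; 20.3% of all genes), 6 upward (11.8%; 12.9% of all genes) and 5 downward (9.8%; 7.39% of all genes), and 2-fold by 0, whereas 6.93% of all genes passed with 2-fold. With centring 9 members, all higher, passed with 2-fold (16.6% of all genes), and by the scanner's log ratios 8, 2 higher and 6 lower (17.4% of all genes). The median log2 ratio was 0.09 over the members and 0.03 over all genes, and the median size without sign was 0.24 over the members and 0.25 over all genes. The share of Rab genes called was near that of all genes, so that the share itself is no result about the family.

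**Figure D1:**
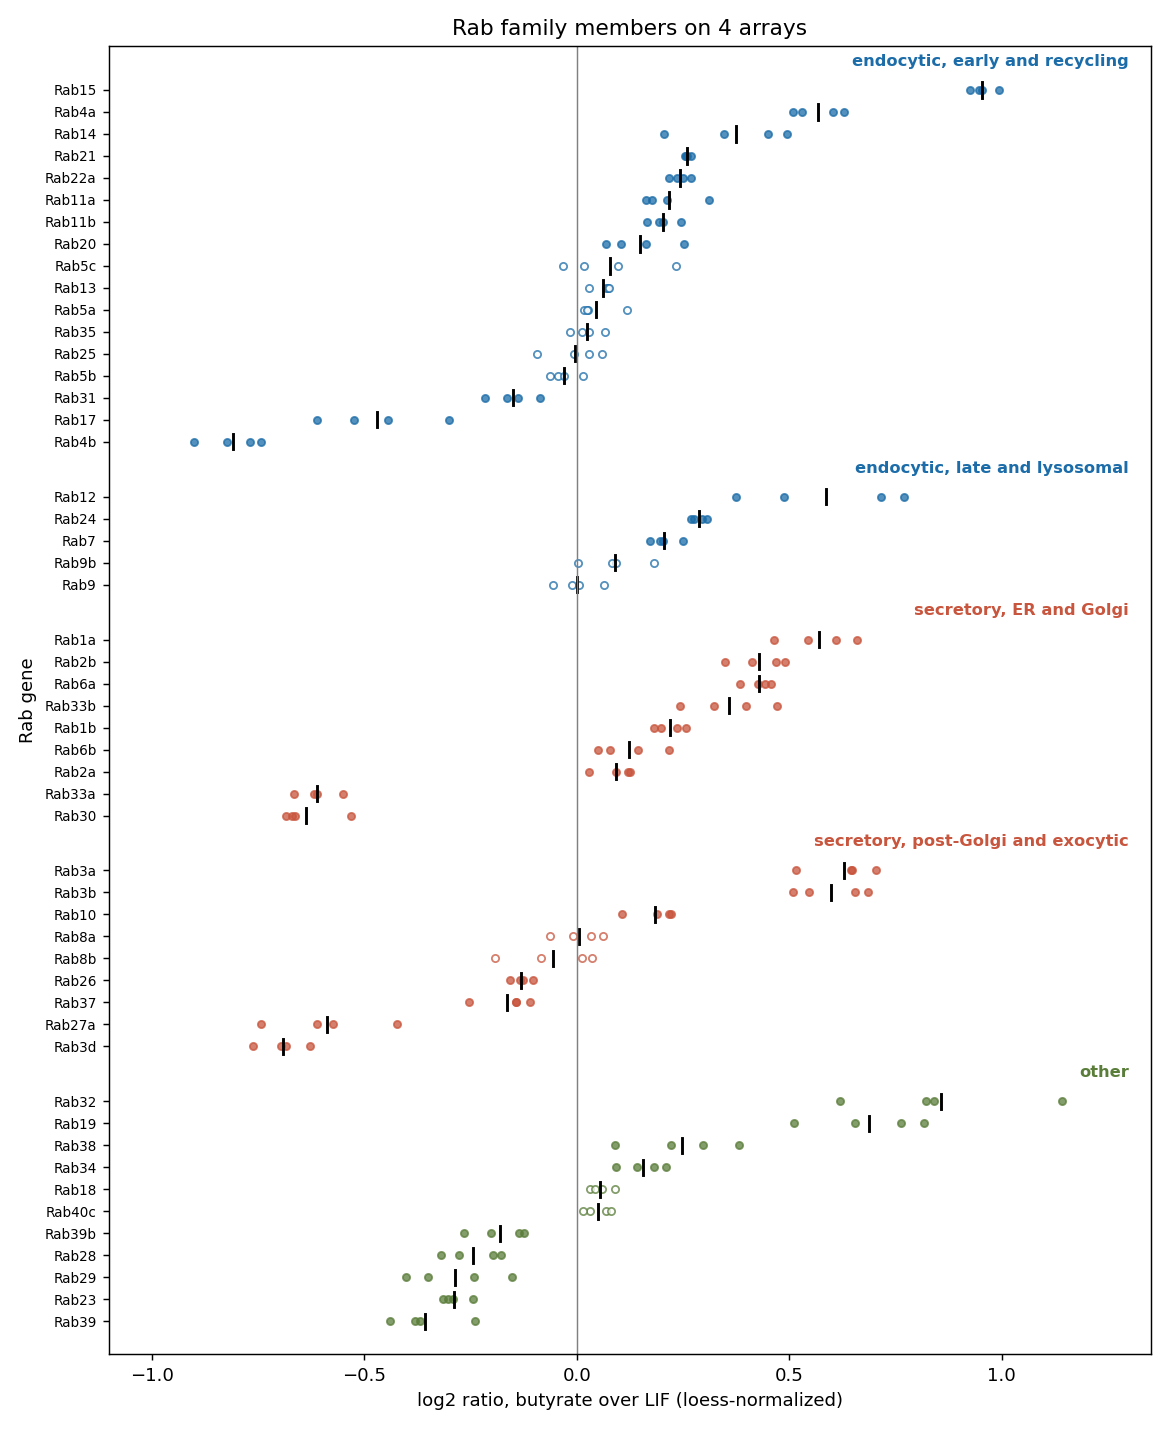
Log2 ratio of butyrate over LIF (horizontal axis, loess-normalized) of each of the 51 tested Rab genes (vertical axis), grouped by class; points are the 4 arrays, bars their mean, and filled points mark members that passed at an adjusted p under 0.05. Rab15 at 0.95 and Rab4b at -0.81 are the ends of the range, and Rab4a and Rab4b, Rab3a and Rab3d, and Rab33b and Rab33a lie on opposite sides of 0; with arrays centred on their median 5 of the 14 lower members, among them Rab23 and Rab29, have ratios above 0.

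The classes, by textbook role, held 22 endocytic, 20 secretory and 13 other members. Of the 22 endocytic members, all tested, 11 rose, 3 fell and 8 did not pass, with a median log2 ratio of 0.12 (18 higher and 1 lower with centring) that was 0.07 when all probes of a gene were averaged. Of 18 tested secretory members 10 rose, 6 fell and 2 did not pass, with a median of 0.11 (13 higher and 1 lower with centring) that was 0.23 with probes averaged and 0.05 by the scanner's log ratios, so that the classes have no settled order. Of 11 tested other members 4 rose, 5 fell and 2 did not pass (6 higher and 1 lower when centred), with a median of 0.05 that turned to -0.16 when all probes of a gene were averaged and to -0.01 with the scanner's own log ratios. At least 1.5-fold was reached by 3 endocytic, 6 secretory and 2 other members. Of all genes 41.7% were called higher, 33.3% lower and 20.3% at 1.5-fold or more. With centring 56.7% of all genes were higher and 4.64% lower. No test was made between classes.

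**Figure D2:**
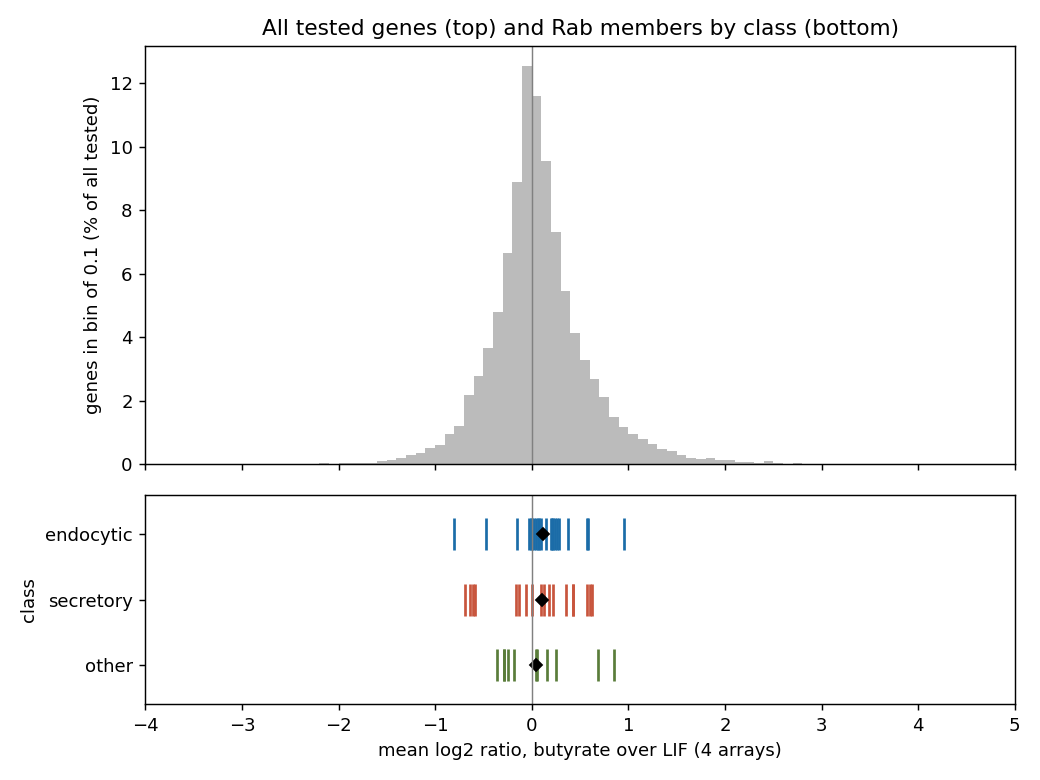
Upper panel, percent of the 17190 tested genes (vertical axis) in bins of 0.1 of the mean log2 ratio of butyrate over LIF on 4 arrays (horizontal axis); lower panel, each tested Rab gene as a tick in its class, with diamonds at the class medians. All members lie between -0.81 and 0.95, and the medians are 0.12, 0.11 and 0.05; when all probes of a gene were averaged the median of the other class was -0.16.

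Among the Rabs of early and recycling endosomes, 8 of 17 rose (47.1%), 3 fell (17.6%) and 6 did not pass. Over all genes 41.7% rose and 33.3% fell. With centring 14 of these Rabs were higher and 1 lower, next to 56.7% and 4.64% of all genes. Rab15, a regulator of traffic through early and recycling endosomes, had the largest ratio of all members after loess and with centring, though by the scanner's log ratios it was 0.91 and others moved more, such as Rab17 at -1.65 and Rab32 at 1.13. Its log2 signal was 12.69, 12.74, 12.76 and 12.84 in the LIF samples and 13.64, 13.69, 13.75 and 13.76 in the butyrate samples of arrays 1 to 4. The groups did not overlap, with a ratio of 0.95 ± 0.03 (SD, n = 4 arrays), or 1.94-fold, with an adjusted p of 1.57e-07. Rab4a and Rab4b, which return receptors from early endosomes straight to the surface, went opposite ways. Rab4a had log2 signals of 10.19, 10.28, 10.26 and 10.25 in LIF and 10.70, 10.81, 10.86 and 10.87 in butyrate, and Rab4b had 9.97, 9.86, 9.94 and 9.98 in LIF and 9.07, 9.09, 9.19 and 9.16 in butyrate. For both genes every LIF sample lay apart from every butyrate sample. The ratio was 0.57 ± 0.06 for Rab4a (adjusted p 3.24e-06) and -0.81 ± 0.07 for Rab4b (adjusted p 6.83e-07, but -0.22 with an adjusted p of 0.165 when arrays were centred).

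Rab14, which carries cargo between the Golgi and endosomes, had ratios of 0.49, 0.45, 0.35 and 0.20 on arrays 1 to 4, with a mean of 0.37 ± 0.13. Rab21, an early endosome Rab that carries integrins, had 0.26, 0.26, 0.27 and 0.25, the closest agreement between arrays in the family (SD 0.006). Rab20, which acts on endosomes and phagosomes, rose by 0.15 ± 0.08. Changes among the Rab11 genes were small: Rab11a, the usual marker of recycling endosomes, had 0.18, 0.16, 0.21 and 0.31 (mean 0.22 ± 0.07, adjusted p 0.00114, with signals that overlapped between the groups), and its relative Rab11b had a mean of 0.20 ± 0.03. Rab22a, which feeds cargo from early endosomes to recycling, had a mean of 0.24 ± 0.02. For these 3 genes other probes gave the opposite sign, as set out further on.

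Rab17, an epithelial Rab of transcytosis, was lower in butyrate, with ratios of -0.61, -0.30, -0.52 and -0.44 and a mean of -0.47 ± 0.13 (adjusted p 7.58e-05). Its probe was dim, at 6.52 to 6.56 in butyrate and 6.86 to 7.14 in LIF, and its ratio was -1.65 by the scanner's log ratios. Rab25, another Rab of epithelial cells, had ratios of -0.09, -0.01, 0.03 and 0.06 and overlapping groups (adjusted p 0.95). With centring Rab25 passed as higher at 0.54 (adjusted p 0.00386). Of 8 simple epithelium markers 6 rose, among them Krt19 by 2.93 ± 0.09 and Cdh1 by 0.94 ± 0.10. Epcam fell, at -0.20 ± 0.04, and Cldn4 did not pass, at -0.02 ± 0.15. A link between these markers and the Rab genes was not tested. Rab31, which acts between the Golgi and endosomes, had a mean of -0.15 ± 0.05. With centring it passed as higher at 0.44, where the median of all genes was 0.41. None of the Rab5 genes, whose proteins drive the fusion of early endosomes, passed on its brightest probe after loess: Rab5a had a mean of 0.05 ± 0.05 (and -0.11 ± 0.08 on another probe, which passed as lower), Rab5b of -0.03 ± 0.03 and Rab5c of 0.08 ± 0.12. Rab13 (0.06 ± 0.02), a Rab of tight junction traffic, and Rab35 (0.02 ± 0.03), of fast recycling, did not pass either. Under centring Rab5a (0.62, adjusted p 0.00703), Rab5c (0.63, adjusted p 0.0105), Rab13 (0.45, adjusted p 0.00273) and Rab35 (0.57, adjusted p 0.0101) passed as higher.

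Of the 5 Rabs of late endosomes and lysosomes 3 rose (60%, next to 41.7% of all genes) and 2 did not pass. Rab12, which sends the transferrin receptor to lysosomes, had ratios of 0.77, 0.72, 0.49 and 0.38, with a mean of 0.59 ± 0.19 (1.5-fold, adjusted p 8.37e-05). Butyrate samples lay from 10.52 to 10.65 and LIF samples from 9.79 to 10.27, without overlap and with the wider spread in LIF. Rab24, a Rab of autophagy, had 0.31, 0.28, 0.27 and 0.30 on the 4 arrays. Rab7, the defining Rab of late endosomes, had 0.17, 0.20, 0.20 and 0.25, with a mean of 0.21 ± 0.03 and an adjusted p of 0.000716. These 3 genes rose on every array, Rab7 by 1.15-fold. Rab9, which returns receptors from late endosomes to the Golgi, had a mean of 0.00 ± 0.05 and overlapping groups, and passed as higher at 0.58 with centring. Rab9b had 0.09 ± 0.07, against 1.32 by the scanner's log ratios, and was well above background on only 1 of 4 LIF arrays.

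Among the Rabs of the ER and Golgi all 9 passed, next to 75% of all genes. Of these Rabs 7 rose and 2 fell (41.7% and 33.3% of all genes), with a median ratio of 0.22. With centring 7 were higher and both lower calls were lost. Rab1a, which governs traffic from the ER to the Golgi, had log2 signals of 14.04, 14.16, 14.16 and 13.97 in LIF and 14.65, 14.62, 14.70 and 14.63 in butyrate. The groups were apart, with a ratio of 0.57 ± 0.09 (adjusted p 6.48e-06). Rab1b rose by 0.22 ± 0.03. Rab6a, a Golgi Rab of retrograde transport, had ratios of 0.46, 0.44, 0.38 and 0.43, with a mean of 0.43 ± 0.03 (adjusted p 9.72e-06), and Rab6b, its brain-enriched relative, had a mean of 0.12 ± 0.08. Rab2a and Rab2b, Rabs of the border between ER and Golgi, had means of 0.09 ± 0.04 and 0.43 ± 0.06. The signals of Rab2a overlapped between the groups and those of Rab2b did not.

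Rab30 and Rab33a were the members of this class that fell. Rab30, a Golgi Rab, had log2 signals of 8.34, 8.25, 8.33 and 8.37 in LIF and 7.67, 7.72, 7.66 and 7.69 in butyrate. Rab33a had 8.98, 8.82, 8.82 and 8.86 in LIF and 8.32, 8.20, 8.21 and 8.30 in butyrate. The groups were apart for both, with ratios of -0.64 ± 0.07 (adjusted p 2.45e-06) and -0.61 ± 0.05 (adjusted p 1.74e-06). With arrays centred they were -0.18 (adjusted p 0.162) and -0.09 (adjusted p 0.479) and neither passed. Relative to the median of all genes under centring they stood at -0.58 and -0.49. By the scanner's log ratios they were -1.05 and -0.91, and both passed as lower. Rab33b, which binds the autophagy protein Atg16l1 at the Golgi, had ratios of 0.47, 0.24, 0.32 and 0.40, with a mean of 0.36 ± 0.10 (adjusted p 0.000143), opposite in sign to Rab33a.

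The Rabs of secretory vesicles and the cell surface were divided. Of 9 tested, 3 rose (33.3%, next to 41.7% of all genes), 4 fell (44.4%, next to 33.3%) and 2 did not pass. With centring 6 were higher and 1 lower, next to 56.7% and 4.64% of all genes. A change of 1.5-fold or more was called for 4 (44.4%; 20.3% of all genes). The Rab3 group, which docks vesicles for regulated exocytosis, supplied 3 of these 4. Rab3a had log2 signals of 8.47, 8.50, 8.41 and 8.59 in LIF and 9.11, 9.02, 9.12 and 9.24 in butyrate. Rab3b had 8.54, 8.59, 8.42 and 8.43 in LIF and 9.08, 9.1, 9.11 and 9.09 in butyrate. Both rose with no overlap of the groups, by 0.63 ± 0.08 (1.55-fold, adjusted p 3.33e-06) and 0.60 ± 0.08 (1.51-fold, adjusted p 4.9e-06). Rab3d, the form found in secretory granules of exocrine cells, had 9.34, 9.13, 9.24 and 9.15 in LIF and 8.58, 8.50, 8.54 and 8.46 in butyrate. It fell on every array, by 0.69 on the log2 scale (SD 0.06, 1.62-fold, adjusted p 1.09e-06), and with centring it was -0.14 (adjusted p 0.325). Rab3a and Rab3b are best known from neurons: of 8 neuron markers 2 rose and 4 fell (2 and 3 with centring), with a summed signal of 7360 to 7750 in butyrate and 6740 to 7280 in LIF, and their part in these values was not tested.

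Rab27a, which tethers melanosomes and lytic granules to the cell cortex, had log2 signals of 7.73, 7.45, 7.82 and 7.93 in LIF and 7.16, 7.03, 7.08 and 7.31 in butyrate. The groups did not overlap, and the ratio was -0.59 ± 0.13 (1.5-fold, adjusted p 2e-05), against -1.18 by the scanner's log ratios. Rab10, a Rab of polarised and insulin-responsive delivery to the surface, had 0.11, 0.19, 0.22 and 0.22 and a mean of 0.18 ± 0.05. Rab26 and Rab37, Rabs of secretory granules, had means of -0.13 ± 0.02 and -0.16 ± 0.06. With centring Rab26 passed as higher at 0.33, though below the median of all genes under centring, 0.41. Rab8a, which delivers Golgi cargo to the surface and the cilium, had -0.06, -0.01, 0.06 and 0.03 and overlapping groups (adjusted p 0.899). Centring took Rab8a to 0.60 with an adjusted p of 0.00692, and another probe of Rab8a passed as higher after loess, at 0.11 ± 0.02. Rab8b had a mean of -0.06 ± 0.10 on its brightest probe and did not pass. With centring it was 0.29 (adjusted p 0.0258), also below the median of all genes. Of its other probes after loess, one passed as higher at 0.255 ± 0.061 and one did not pass at 0.099 ± 0.117.

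**Figure D3:**
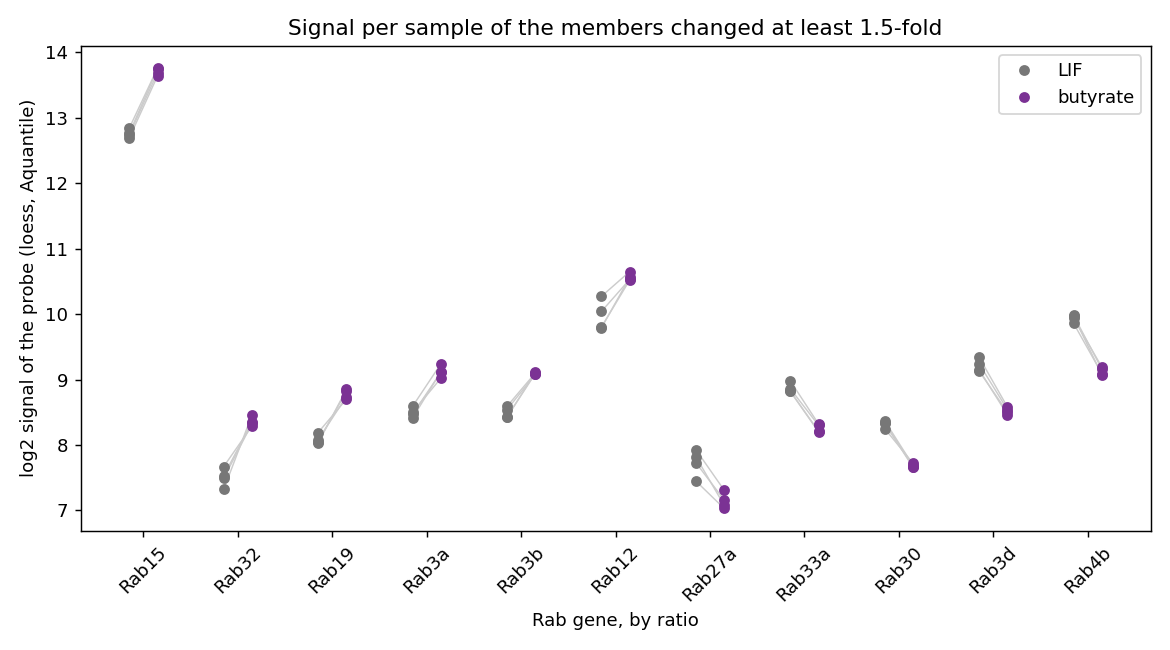
Log2 signal of the probe (vertical axis, loess and Aquantile normalized) of the 11 Rab genes that passed with at least 1.5-fold, ordered by ratio (horizontal axis); grey points are the 4 LIF samples, purple points the 4 butyrate samples, and lines join the samples of an array. The groups do not overlap for any of the 11 genes, which choosing them by test and size nearly ensures. Signals of different genes come from different probes and are not compared. Rab30, Rab33a, Rab3d and Rab4b no longer passed when arrays were centred without loess.

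Outside these classes Rab32 and Rab19 rose most. Rab32, which with Rab38 supplies enzymes to melanosomes and other lysosome-related organelles, had log2 signals of 7.53, 7.67, 7.49 and 7.32 in LIF and 8.35, 8.29, 8.33 and 8.46 in butyrate. The groups were apart by a ratio of 0.86 ± 0.21 (1.81-fold, adjusted p 1.76e-05), with array 4 highest at 1.14 and array 2 lowest at 0.62. Rab38 rose by 0.25 ± 0.12. Of the melanocyte markers, Tyr, Tyrp1 and Dct were not bright enough to test, and Mitf, Mlana and Pmel each fell after loess, with a summed signal of 1050 to 1080 in butyrate and 1510 to 1650 in LIF. With centring none of these 3 passed: Mitf was -0.10 (adjusted p 0.322), Mlana 0.22 (adjusted p 0.117) and Pmel -0.21 (adjusted p 0.16). Rab19 had ratios of 0.66, 0.51, 0.82 and 0.76, with a mean of 0.69 ± 0.14 (1.61-fold, adjusted p 8.91e-06), and its butyrate samples (8.70 to 8.85) lay above all LIF samples (8.03 to 8.19).

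Rab34, a Rab of the Golgi and the primary cilium, rose by 0.16 ± 0.05. Rab23, which restrains Hedgehog signalling, had -0.29, -0.30, -0.31 and -0.24, a mean of -0.29 ± 0.03 (adjusted p 9.64e-05). Rab29, a Golgi Rab linked to the kinase Lrrk2, had a mean of -0.29 ± 0.11. Both were lower on all 4 arrays. With centring they were 0.29 and 0.28, below the median of all genes under centring (0.41), and did not pass. Rab28, a Rab of cilia, had -0.24 ± 0.07 and was 0.35 with centring (adjusted p 0.0538). Rab39 had -0.36 ± 0.08, against -1.16 by the scanner's log ratios, and Rab39b, a gene of brain development, had -0.18 ± 0.07 and was -0.07 with centring (adjusted p 0.474). Rab18, of lipid droplets, and Rab40c, a subunit of a ubiquitin ligase, had means of 0.05 ± 0.03 each, with overlapping groups, and did not pass. Another probe of each passed as lower, at -0.22 ± 0.06 for Rab18 and -0.37 ± 0.08 for Rab40c, and with centring both genes passed as higher, at 0.62 and 0.63. Rab27b, Rab36, Rab3c and Rab40b were not well above background in either group on any array and have no ratio.

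Close relatives were compared within each array. The family held 11 numbered groups with at least 2 tested members, 24 genes in all, and in 3 groups members were called in opposite directions after loess. With centring no group had opposite calls, since Rab4b, Rab3d and Rab33a no longer passed. Rab4a exceeded Rab4b in its log2 ratio by 1.38 ± 0.07 (SD, n = 4 arrays), between 1.3 and 1.45. Rab3a exceeded Rab3d by 1.32 ± 0.12 and Rab3b exceeded it by 1.29 ± 0.11, and Rab33b exceeded Rab33a by 0.97 ± 0.12, between 0.86 and 1.14. These pairs were picked for their opposite calls, so that gaps of the same sign on each of the 4 arrays follow from the choice. With centring the means of the gaps were 1.39, 1.31, 1.29 and 0.71 in the same order. In the other groups members were called in the same direction or not called. Rab1a and Rab1b, Rab2a and Rab2b, Rab6a and Rab6b, and Rab11a and Rab11b rose, and Rab39 and Rab39b fell. No member of the Rab5, Rab8 and Rab9 groups passed on its brightest probe after loess. Another probe passed as lower for Rab5a and as higher for Rab8a and Rab8b. With centring Rab5a, Rab5c, Rab8a, Rab8b and Rab9 passed as higher. Relatives with similar sequences can share signal on a probe, and the probe letters were not used here.

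Several members were measured by more than 1 probe, and the probes did not always give the same ratio. Of 27 members with at least 2 tested probes, 18 had probes of 1 sign and 4 had probes that passed in opposite directions, and the median range between probes of a member was 0.33 on the log2 scale. Rab22a had 0.24 ± 0.02 on its brightest probe and -0.17 ± 0.02 and -0.25 ± 0.23 on the others, so its direction rests on the probe chosen. Rab11a had 0.22 ± 0.07 and 0.28 ± 0.09 on both bright probes and -0.14 ± 0.07 on a dim one. Rab11b had 0.20 ± 0.03 and -0.19 ± 0.12, and Rab37 -0.16 ± 0.06 and 0.16 ± 0.14. Averaged over probes, Rab22a was -0.06, Rab11b -0.01 and Rab37 0.00. Probes that share a sign could still differ in size: Rab2a had 0.09 ± 0.04 and 0.56 ± 0.04, Rab6b 0.12 ± 0.08 and 0.55 ± 0.14, Rab1a 0.57 ± 0.09 and 0.16 ± 0.07, and Rab27a -0.59 ± 0.13 and -0.07 ± 0.07. The Rab12 rise of 0.59 was 0.18 ± 0.04 and 0.01 ± 0.05 on its other probes. Rab14 had 0.37 ± 0.13 next to 0.21 ± 0.05 and 0.79 ± 0.19, the last over 3 arrays because 1 spot was an outlier. Rab3d was lower on both probes, at -0.69 ± 0.06 and -0.30 ± 0.12. For 24 members, Rab15, Rab4a, Rab4b, Rab3a, Rab3b and Rab32 among them, 1 probe was tested and this comparison was not open.

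**Figure D4:**
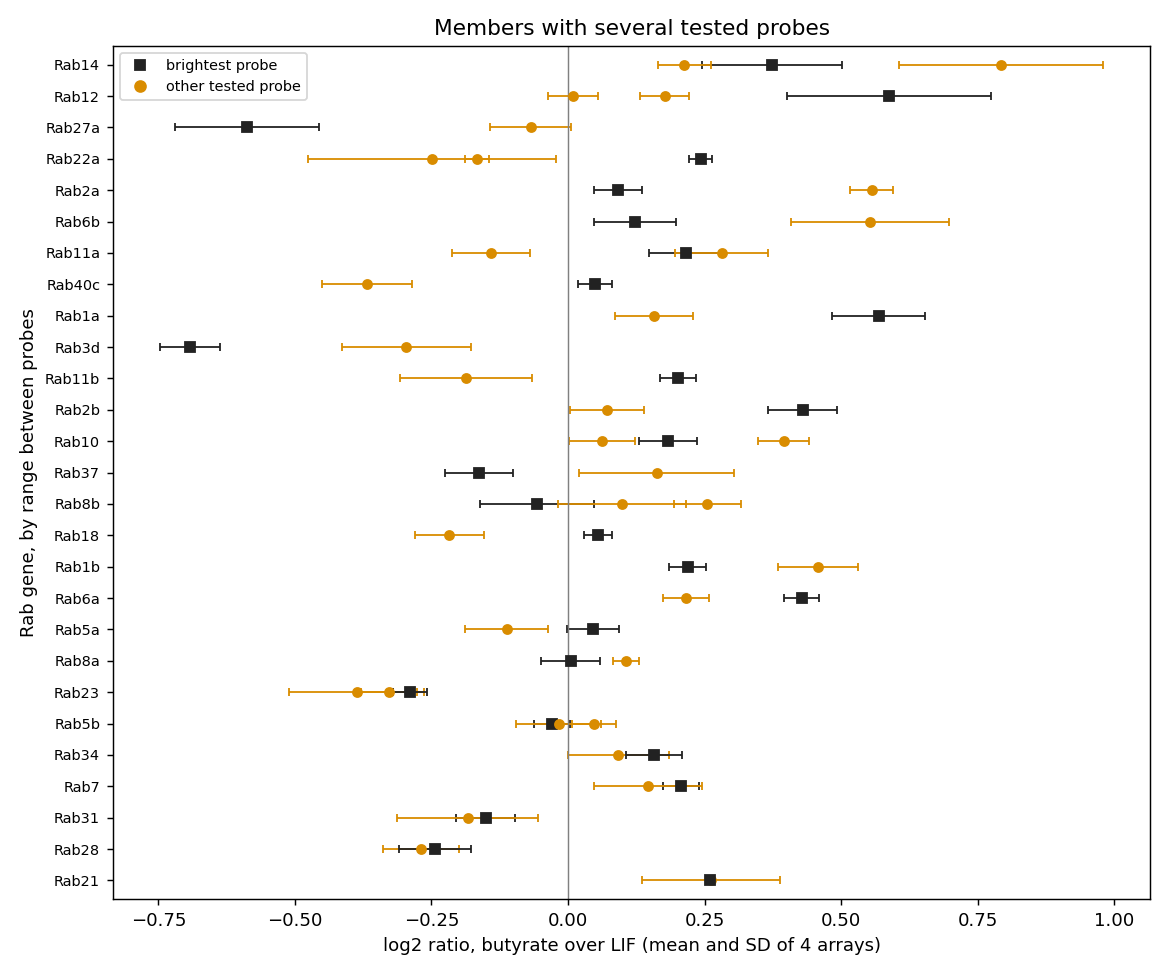
Log2 ratio of butyrate over LIF (horizontal axis, mean and SD of 4 arrays, 3 for 1 Rab14 probe) of every tested probe of the 27 Rab genes with at least 2 tested probes (vertical axis, ordered by the range between probes); black squares are the brightest probe, used for the gene, and orange circles the others. Rab22a, Rab11a, Rab11b and Rab37 have probes that passed on both sides of 0.

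The normalization set where 0 lay. With arrays centred on their median and no loess, the median log2 ratio of all genes was 0.41 in place of 0.03, and that of the members 0.62 in place of 0.09. Relative to the median of all genes the members then stood at 0.22, the endocytic class at 0.22, the secretory class at 0.23 and the other class at 0.04. Of the 14 members called lower, 5 had a ratio above 0 with centring, and 13 were still below the median of all genes. All 25 members called higher were above it. Rab17 (-0.37), Rab27a (-0.26) and Rab39 (-0.25) were called lower under both settings, and Rab15 (1.49), Rab32 (1.31) and Rab19 (1.2) were the highest under both.

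**Figure D5:**
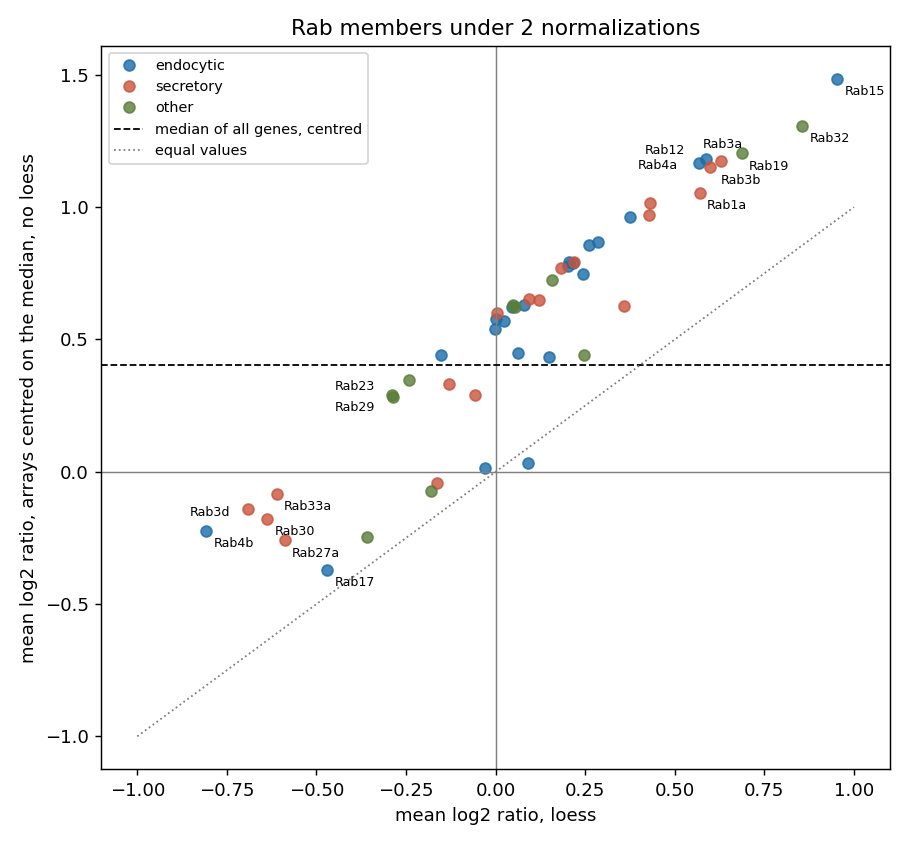
Mean log2 ratio of butyrate over LIF of the 51 tested Rab genes after loess (horizontal axis) and after centring each array on its median without loess (vertical axis); the dashed line is the median of all genes under centring, 0.41, and the dotted line marks equal values. Rab23 and Rab29 are below 0 on the horizontal axis and above 0 on the vertical axis, while Rab17, Rab27a and Rab39 are below 0 and Rab15, Rab32 and Rab19 at the top on both.

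Where the genes lie also went with the ratios. By RefSeq (GRCm38.p6) 9 tested members are on chromosomes 8, 11 and 19, and 6 of them rose and 1 fell, with a median of 0.16. The 42 members on other chromosomes had 19 that rose, 13 that fell and a median of 0.06. All genes on these 3 chromosomes had a median of 0.22, with 62.4% higher, and genes elsewhere -0.01, with 38.1% higher. Rab4a and Rab3a are on chromosome 8 and Rab1a on chromosome 11, whereas Rab15, Rab32, Rab19, Rab3b and Rab12 are on others. The chromosomes were picked with results of these data known, and their part in the Rab values was not tested. By the loess calls alone, of the 26 brighter members 15 rose and 4 fell, and of the 25 dimmer ones 10 rose and 10 fell. The same split was not made over all genes, so whether it is particular to the family cannot be told.

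After loess the genes that load, switch and read out Rabs changed in both directions, whereas with centring only 1, the exchange factor Trappc6a, was called lower in limma's test at an adjusted p under 0.05 and also at an unadjusted p under 0.05. Over all genes 41.7% were called higher and 33.3% lower after loess, and 56.7% and 4.64% with centring. Of 8 genes for prenylation and membrane extraction 2 rose (25%) and 5 fell (62.5%), with a median of -0.13 (6 higher with centring). Gdi2, which extracts GDP-bound Rabs from membranes, rose by 0.42 ± 0.04, with 0.43, 0.40, 0.48 and 0.39 on the 4 arrays. Rabac1, a prenylated Rab acceptor of Golgi and ER membranes, fell by 0.61 (SD 0.04), and Rabif, a chaperone of nucleotide-free Rabs, fell by 0.45 (SD 0.09). With arrays centred Rabac1 was -0.07 and Rabif 0.11 and neither passed. Of 41 tested exchange factors, which load Rabs with GTP, 17 rose (41.5%) and 16 fell (39%), near the shares of all genes. Their median was 0.00 (26 higher and 1 lower with centring). Trappc6a, a subunit of the TRAPP complex that activates Rab1, had -1.34, -1.35, -1.35 and -1.34, a mean of -1.34 ± 0.008 (2.54-fold, adjusted p 3.18e-08), and with centring it was -0.76 and passed. Rin1, which activates Rab5, rose 2.04-fold (1.03 ± 0.16, adjusted p 1.84e-06). No Rab5 gene passed on its brightest probe after loess, and Rab5a and Rab5c passed as higher with centring. A link between Rin1 and the Rab5 genes was not tested. Dennd2d, an exchange factor of the DENN family, rose by 0.86 ± 0.16. Ric1 was not bright enough to test.

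Of 35 GTPase-activating proteins, which switch Rabs off, 12 rose (34.3%) and 13 fell (37.1%), next to 41.7% and 33.3% of all genes. Their median was -0.02 (23 higher with centring, next to 56.7% of all genes). Tbc1d12 had 0.94, 0.46, 0.90 and 0.81, a mean of 0.78 ± 0.22, and Tbc1d5, which acts on Rab7 with the retromer, had a mean of 0.61 ± 0.08. Tbc1d17 was lower, at -0.63 ± 0.04, and -0.03 with centring (adjusted p 0.843). Of 43 tested effectors 25 rose (58.1%; 41.7% of all genes) and 8 fell (18.6%; 33.3% of all genes), with a median of 0.14 (31 higher with centring). Sytl2 and Sytl4 were well above background in butyrate samples only and so could pass the filter only by being high there. With only probes well above background in every sample, 23 effectors were called higher and 8 lower. Bicd2, the adaptor that links Rab6 vesicles to dynein, rose by 0.88 ± 0.12 (adjusted p 1.49e-06), and Myo5b, the motor of Rab11 recycling endosomes, by 0.83 ± 0.18 (adjusted p 8.57e-06). Both were higher on every array, Bicd2 at 0.93, 0.77, 0.79 and 1.03 and Myo5b at 0.90, 0.57, 0.91 and 0.96. Sytl2, an effector of Rab27a, was not well above background in any LIF sample. Its mean ratio was 0.70 ± 0.24 (1.62-fold, adjusted p 9.36e-05), with 0.36 on array 2 and 0.91 on array 4. Its LIF signal was also set to at least the lowest signal well above background on each LIF array. That gave the same 1.62-fold. The effectors Exph5, Mlph, Rph3a, Rph3al and Sytl5, which serve Rab3 and Rab27 proteins, were not bright enough to test.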

How the data were processed

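Total RNA of 8 samples was hybridised in pairs on 4 dual-colour Agilent arrays. Per the file headers, the authors' deposited scanner files hold spot intensity per channel and a log10 ratio of red over green, extracted with Agilent Feature Extraction 9.1, per the submitters' processing notes. The authors also deposited a value table, whose values are log2 signals per the match to the processed intensity (correlation at least 0.9996); its column medians are all 6.487, how it was normalized is not stated, and each column is 1 sample. Here, mean intensities were background-corrected with normexp (offset 50), loess-normalized within arrays with control spots at weight 0, and averaged per probe, after 14 outlier spots were set missing. Probes well above background on at least 3 of 4 arrays in a channel were tested (25662 of 41174); the brightest stood for its gene. limma 3.58.1 (R 4.3.3) tested log2 ratios against 0, with Benjamini-Hochberg adjustment over 17190 genes and a threshold of 0.05. Levels per sample are log2 signals after Aquantile scaling. Genes were named through RefSeq (GRCm38.p6): by accession for 22951 probes, symbol for 6659 and synonym for 3109, and 8455 kept the file's name. Rab1, Rab2, Rab6 and Rab7l1 of the files are given as Rab1a, Rab2a, Rab6a and Rab29.

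Members were named by a rule over 5 groups: early and recycling, late endosomal, ER and Golgi, secretory vesicle, and other. In each group it took the 5 passing members with the largest ratios in size. Compartment markers, members whose probes passed in opposite directions and untested members were added. So were the 3 largest passing genes of each list of regulators. Other members were described beside them. The members, classes, lists and chromosomes were chosen with earlier results of these data known. Both samples of an array share its number and its file: deviations of same-numbered samples correlated at 0.298, 0.158, 0.306 and 0.226, and others at -0.214 to 0.101, so the array is the block in the ratio. The number of arrays, 4, limits precision. The code was tested on simulated data.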

Additional observations from a re-analysis of the deposited data

Results flagged for a closer look

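Among the 29 members described by the naming rule, 2 had 1 array apart from the other 3 by Dixon's criterion, where chance gives about 1 in 20. Rab30 was at -0.53 on array 2, next to -0.66 for the nearest of the others, and it was lower in butyrate on all 4 arrays. Rab5a was at 0.12 on array 4, next to 0.03 for the nearest of the others, and it did not pass the test.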

How the results depend on the processing

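Over 17 alternative settings the named members gave 493 values, of which 481 kept their direction and their side of the threshold. Centring arrays without loess gave 37 members higher, 3 lower and 28 called at 1.5-fold or more. Over all members 9 lower calls were lost, 2 (Rab26 and Rab31) became higher and 10 members not called before were called higher. With centring the median of all genes was 0.41, above Rab26 at 0.33 and just below Rab31 at 0.44. Among the named members Rab3d, Rab4b, Rab30, Rab33a and Rab37 lost their calls, Rab5a and Rab8a gained one, and Rab23 turned to 0.29 and Rab29 to 0.28. Averaging a gene's probes turned Rab11b to -0.011 and Rab22a to -0.058. Counting probes singly gave 40 probes higher and 26 lower, since more probes than genes are counted. The cause of the other changes was not tested. The scanner's log ratios gave 24 higher and 17 lower, and the values deposited by the authors 24 higher and 18 lower, with 5 and 6 endocytic members lower in place of 3. Both gave 15 members at 1.5-fold or more. Effectors called lower went from 8 to 13 under both, GTPase-activating proteins called lower from 13 to 20 with the deposited values, and prenylation genes called lower from 5 to 3 with probes averaged.

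Leaving out 1 array at a time gave 11569 to 12803 genes called, 23 to 24 members higher, 14 lower and 9 to 11 at 1.5-fold or more. Without the replicate block of the array 12508 genes, 24 members higher and 14 lower were called, and with a random replicate block 12955, 25 and 14, so the pairing moved 1 member. Leaving out genes of chromosomes 8, 11 and 19, an alternative chosen after seeing the data, left 19 members higher, 13 lower and 10 at 1.5-fold or more. Ratios of some dim probes differed between settings: Rab17 was -0.47 after loess and -1.65 by the scanner's log ratios, and Rab9b 0.09 and 1.32. Which step of the processing made the difference was not tested. Rab27b, Rab36, Rab3c and Rab40b were too dim to test.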
